A study of Homo sapiens with 8 samples.

Results

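The genes described here are 50 coding genes of the distal long arm of chromosome 3 (3q), from ACTL6A to the end of the arm, out of 19718 coding genes in the table. They were named as a list and looked up by symbol, and each symbol was found once. The list was drawn up from genes that were lower in the drug-resistant cells, so the members' differences between the cell lines describe how they were chosen. No p-value is given for any of them, and counts of calls among them are a description, set beside the share over all genes. Of the 50 members, 48 reached 1 FPKM in at least 2 of 8 libraries and entered the fit with 11255 genes in all. BCL6 and LPP did not. FPKM counts sequenced fragments relative to transcript length and library size, which makes it a level per length, so levels of different genes can be compared.

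The study used HEL92.1.7, an erythroleukaemia cell line that stands for secondary acute myeloid leukaemia, and HEL OTX P/R, its persister-resistant derivative. The derivative is 1 line, and the sources used here do not say how many clones it holds. OTX015 (birabresib) is a small molecule that occupies the acetyl-lysine pockets of BET bromodomain proteins and so takes them off chromatin. The 4 groups, with 2 libraries each, were untreated P/R cells, untreated parental cells, P/R cells after 8 hours in 1000 nM OTX015, and parental cells after 8 hours in 1000 nM OTX015. All groups share the background of the parental line, which is known to carry a mutant JAK2 kinase, and all were grown in the same serum-containing medium.

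Members of the list have little in common but their address. They encode parts of machines that most cells use, among them the proteasome, the cap-binding and initiation factors of translation, the clathrin adaptor AP-2, enzymes of the SUMO and ubiquitin pathways and proteins of the mitochondrial inner membrane. Many of these machines have a fixed number of each subunit, and the other subunits are encoded on other chromosomes. Distal 3q is best known in cancer as an arm that is often gained in squamous carcinomas.

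Libraries of 1 group correlated at r = 0.996 to 0.997 across tested genes on the log2(FPKM + 1) scale, and libraries of different groups at r = 0.959 to 0.985, where genes are not independent replicates. The values are quantile normalized, so every library sums to 678133 FPKM and the sequencing depth is unknown. All 9 erythroid and megakaryocyte markers were expressed, with HBG2 at 8044 to 9651 FPKM and GATA1 at 327 to 386 FPKM over the 8 libraries. Their summed level came mostly from HBG1 and HBG2. It was 12604 to 12865 FPKM in untreated P/R cells and 13538 to 13597 FPKM in untreated parental cells. Under OTX015 it was 11224 to 12337 FPKM in P/R cells and 12583 to 13474 FPKM in parental cells. Less abundant markers varied more over the 8 libraries, GP1BA from 12.6 to 70.7 FPKM and PLEK from 116 to 303 FPKM. The part of these shifts in the results was not tested. Of 6 markers of other blood cells, 5 stayed below 1 FPKM everywhere and MS4A1 was listed at 0, while CD79A had 1.14 to 5.69 FPKM. The 6 summed to 1.99 to 2.43 FPKM in untreated P/R cells and 5.69 to 5.9985 FPKM in untreated parental cells, and to 1.48 to 1.501 FPKM in P/R cells and 3.43 to 4.00 FPKM in parental cells under OTX015. Their part in the results was not tested. The 5 epithelial and stromal markers stayed below 1 FPKM, with KRT5 and COL1A2 listed at 0. In bulk libraries such as these, fewer cells that use a gene and less RNA per cell cannot be told apart.

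Most members were lower in P/R cells by about the same modest amount, with and without the drug. Summed over the 50 members, the level was 1737 and 1741 FPKM in untreated P/R cells, against 2341 and 2334 FPKM in untreated parental cells. Under OTX015 the sums were 1821 and 1830 FPKM in P/R cells, against 2519.6 and 2469.5 FPKM in parental cells. The libraries of the lines do not overlap in either sum. The median member had a log2 difference, P/R over parental, of -0.42 in untreated cells (interquartile range -0.57 to -0.28) and -0.48 under OTX015 (-0.62 to -0.35), while the median over all genes tested was -0.01 in both. As ratios of mean FPKM, the medians were 0.742 untreated and 0.705 under OTX015. The ratio lay between 0.6 and 0.9 for 39 members untreated and 38 under OTX015.

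In untreated cells, 45 of the 48 members in the fit had a log2 difference below 0, as did 52.1% of all genes tested, and 35 members were called lower at an adjusted p under 0.05 in limma, a call made for 11.9% of all genes tested. Both P/R libraries were below both parental libraries for 43 members, which held for 33.0% of all genes tested. Under OTX015, 45 members were below 0 (53.0% of all genes), 40 were called lower (11.7% of all genes) and 45 had all P/R libraries below all parental ones (32.6% of all genes). The other 3 had both P/R libraries above both parental ones in each comparison, which held for 29.3% of all genes untreated and 28.2% under OTX015. Called higher were 2 members in each comparison, against 11.7% of all genes untreated and 12.7% under OTX015. Since the members were picked from these contrasts, nothing is read from these shares. Over the 48 members, the untreated difference had a weak relation to the mean level (r = -0.227, rho = -0.08).

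**Figure D1:**
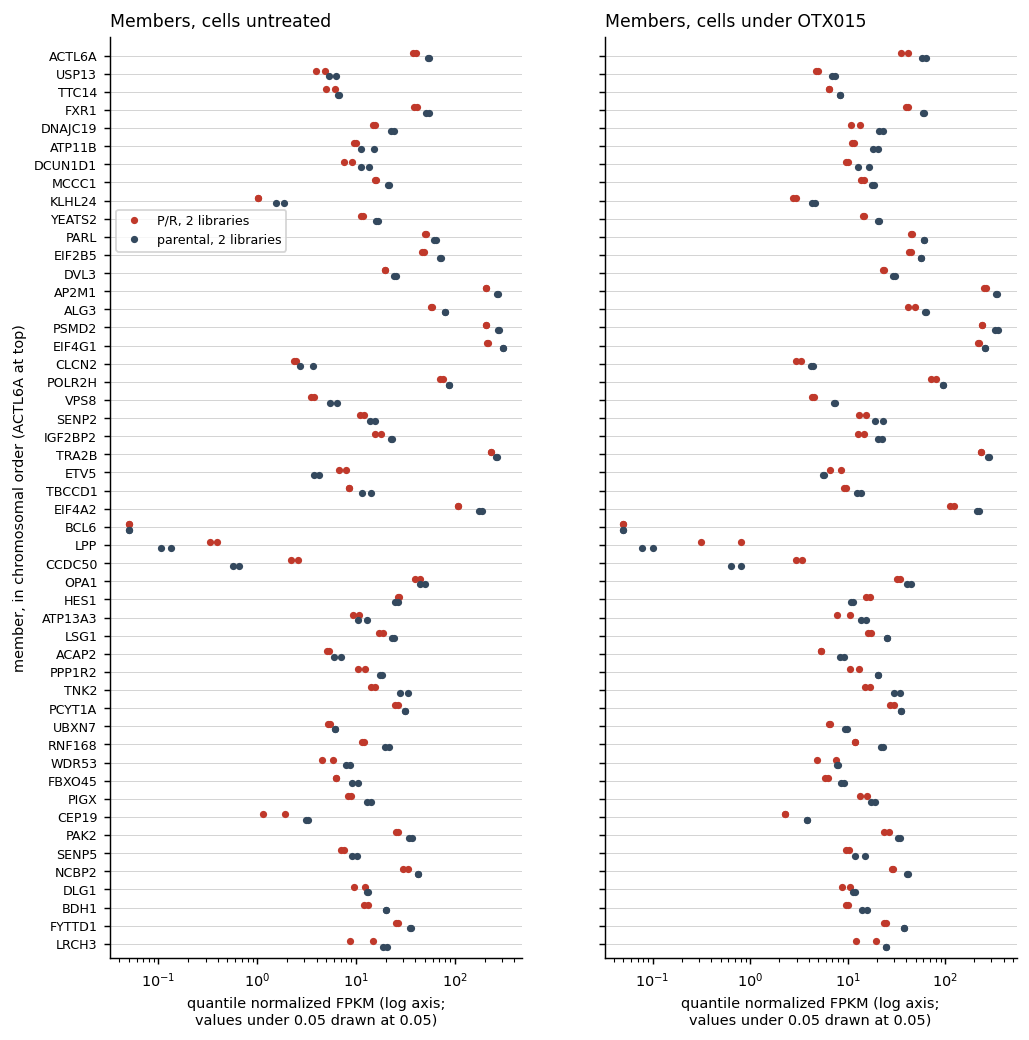
Quantile normalized FPKM (log axis) of the 50 members in each library, in chromosomal order, with untreated cells on the left and cells under OTX015 on the right. P/R libraries (red) lie left of parental libraries (dark) in most rows, and HES1, ETV5 and CCDC50 are the members in the fit for which they lie to the right.

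The lower levels ran from the start of the stretch to its end, with exceptions, and included genes that are not on the list. The table holds 134 genes from ACTL6A to the end of the arm, of which 85 were tested. Among the 37 tested genes that are no members, 31 had a log2 difference below 0 in untreated cells and 33 under OTX015. Their medians were -0.39 and -0.48. Over all genes tested, 52.1% were below 0 untreated and 53.0% under OTX015. Of the 37, 23 were called lower untreated and 25 under OTX015, with 1 called higher in each. Over all genes, 11.9% were called lower and 11.7% higher untreated, and 11.7% and 12.7% under OTX015. The stretch was set with results known, so nothing is read from these shares. Divided into 5 runs of 17 tested genes in chromosomal order, the stretch had medians of -0.40, -0.45, -0.38, -0.37 and -0.43 untreated, and of -0.48, -0.54, -0.35, -0.51 and -0.49 under OTX015. The third run, from IGF2BP2 to HES1, held 11 genes below 0 untreated and 13 under OTX015, while the other runs held 15 to 17 in both. Across the 558 tested genes of the rest of chromosome 3, the median was 0.01 untreated and -0.01 under OTX015. The medians of the other chromosomes ran from -0.14 for chromosome 21 to 0.03 untreated and from -0.15 for chromosome 21 to 0.02 under OTX015. A median over a whole chromosome can hide shorter stretches that differ, so these values do not show that distal 3q stands alone. Chromosome 17, where genes named below differ in both directions, had medians of -0.005 untreated and 0.008 under OTX015.

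ACTL6A is where the list begins, and the 5 nearest tested genes on its centromeric side also had log2 differences below 0 in both comparisons, although 1 of them, KCNMB3, reached 1 FPKM in the untreated parental libraries alone. GNB4, a G protein beta subunit and the first gene outside the list, had 12.5 and 12.6 FPKM in untreated P/R cells, against 14.7 and 15.3 FPKM in untreated parental cells. MFN1, a mitochondrial fusion GTPase, had 4.50 and 3.66 FPKM in untreated P/R cells, against 6.07 and 6.26 FPKM in untreated parental cells. PIK3CA, the catalytic subunit of a lipid kinase, had 5.68 and 5.85 FPKM in untreated P/R cells, against 6.90 and 7.36 FPKM in untreated parental cells, and under OTX015 5.49 and 6.19 FPKM in P/R cells, against 10.4 and 11.8 FPKM in parental cells. For all 3 genes the P/R libraries are below the parental ones in both comparisons. ZNF639 stood at -0.37 untreated and -0.53 under OTX015, and KCNMB3 at -1.22 and -0.41. Further out, ZMAT3 stood at 0.10 and 0.02, TBL1XR1 at -0.37 and -0.52, and NLGN1 at 0.26 and -0.39. Just inside the start of the list, ACTL6A stood at -0.48 and -0.65 and USP13 at -0.34 and -0.48.

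Among genes of the stretch that are no members, TFRC, the transferrin receptor that brings iron into erythroid cells, was the abundant one with the largest difference. It had 99.6 and 104 FPKM in untreated P/R cells, against 229 and 259.9 FPKM in untreated parental cells. Under OTX015 it had 109 and 105 FPKM in P/R cells, against 212 and 221 FPKM in parental cells. The lines do not overlap, and TFRC in P/R cells was at 0.417 times its untreated parental mean. CAMK2N2, an inhibitor of a calcium-dependent kinase, had the lowest difference, with 1.26 and 1.56 FPKM in untreated P/R cells, against 6.36 and 7.02 FPKM in untreated parental cells. The other 3 of the 5 lowest were ZDHHC19 at -1.11, RPL39L at -0.78 and MAGEF1 at -0.73, untreated. ZDHHC19 and RPL39L reached 1 FPKM in parental libraries alone, so their place in the fit rests on them. The same holds for PIGZ, with 1.32 and 1.22 FPKM in parental cells under OTX015 and less than 1 FPKM in every other library. These genes are among those counted above as below 0 in both comparisons and as called lower under OTX015. The 5 highest untreated were GP5, a platelet glycoprotein (0.53 untreated and 0.08 under OTX015), FGF12 (0.50 and 1.10), DGKG (0.20 and -0.03), MCF2L2 (0.15 and 0.13) and ST6GAL1 (0.08 and -0.09), all below 10 FPKM. Untreated, the difference of DGKG was -0.13 without replicate 1 of P/R cells, that of ST6GAL1 -0.10 without replicate 2 of P/R cells and that of MCF2L2 -0.0023 without replicate 1 of parental cells.

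**Figure D2:**
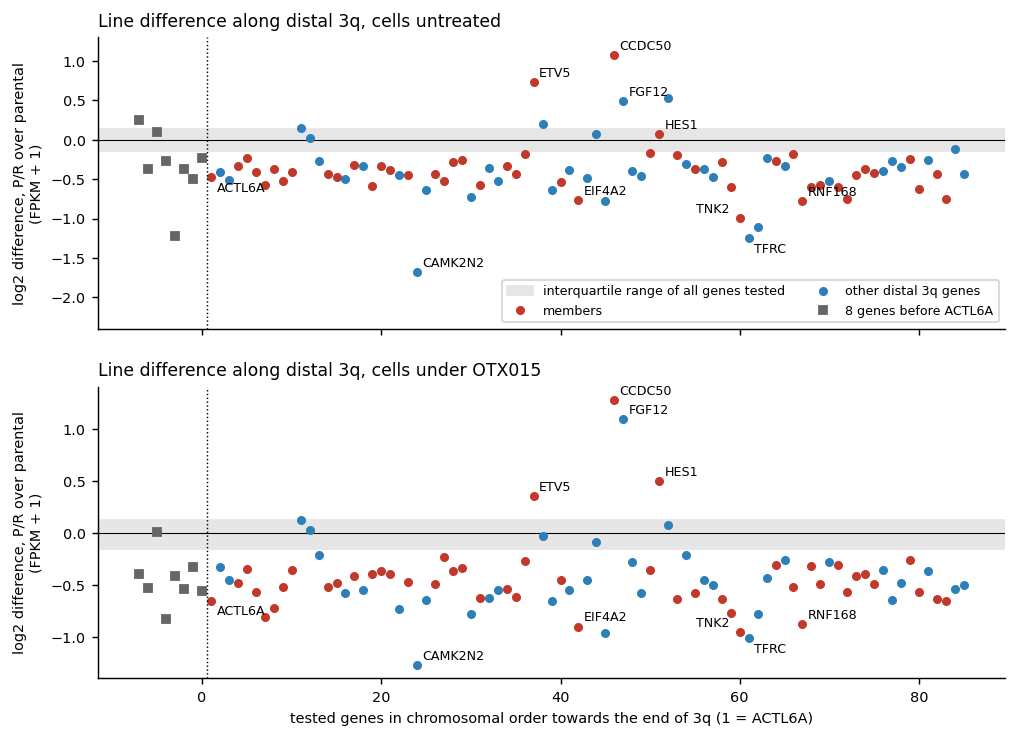
Log2 difference in FPKM + 1, P/R over parental, of the 85 tested genes from ACTL6A to the end of 3q and of the 8 tested genes on its centromeric side, by chromosomal order, untreated (top) and under OTX015 (bottom). The grey band is the interquartile range of all 11255 genes, and the members (red) and other genes of the stretch (blue) lie mostly below it from the first run of 17 genes to the last.

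All 9 members that handle RNA or start translation were lower in P/R cells in both comparisons, with a median log2 difference of -0.43 untreated and -0.57 under OTX015. EIF4A2, a helicase that unwinds messenger RNA leaders, had 107 and 108 FPKM in untreated P/R cells, against 189.7 and 178 FPKM in untreated parental cells. Under OTX015 it had 111 and 124 FPKM in P/R cells, against 226 and 213 FPKM in parental cells. EIF4G1, the scaffold that joins the cap-binding factor to the helicase, had 219 and 213 FPKM in untreated P/R cells, against 311 and 309 FPKM in untreated parental cells. The lines are apart for both genes, by a ratio of 0.586 for EIF4A2 and 0.697 for EIF4G1 untreated. EIF2B5, the catalytic subunit of the factor that reloads eIF2 with GTP, had 48.3 and 46.5 FPKM in untreated P/R cells, against 72.4 and 70.7 FPKM in untreated parental cells. NCBP2, the small subunit of the nuclear cap-binding complex, had 29.6 and 33.5 FPKM in untreated P/R cells, against 42.6 and 42.5 FPKM in untreated parental cells. FYTTD1, an adaptor for messenger RNA export, had 26.4 and 25.3 FPKM in untreated P/R cells, against 34.9 and 35.7 FPKM in untreated parental cells. Each of these 3 stood at 0.663 to 0.742 times its parental mean, with no overlap. FXR1, an RNA-binding protein of the fragile X family, had 41.0 and 38.7 FPKM in untreated P/R cells, against 51.6 and 54.5 FPKM in untreated parental cells. LSG1, a GTPase of late ribosome assembly, had 18.7 and 17.2 FPKM in untreated P/R cells, against 24.3 and 22.9 FPKM in untreated parental cells, and IGF2BP2, an mRNA-binding protein, had 15.7 and 17.7 FPKM in untreated P/R cells, against 22.5 and 23.2 FPKM in untreated parental cells. TRA2B, a splicing factor that binds exonic enhancers, had the smallest untreated difference of the group, with 233 and 233 FPKM in untreated P/R cells, against 267 and 262 FPKM in untreated parental cells, and its libraries are still apart.

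Of the 9 members of the ubiquitin, SUMO and proteasome pathways, all had a log2 difference below 0 in both comparisons (median -0.43 untreated and -0.51 under OTX015). RNF168, the ligase that marks histone H2A at DNA breaks, was lowest, with 12.0 and 11.5 FPKM in untreated P/R cells, against 19.8 and 21.8 FPKM in untreated parental cells. Under OTX015 it had 11.9 and 11.9 FPKM in P/R cells, against 22.9 and 22.2 FPKM in parental cells. PSMD2, a large subunit at the base of the regulatory particle of the proteasome, had 205 and 206 FPKM in untreated P/R cells, against 284 and 271 FPKM in untreated parental cells. Neither gene has overlapping lines, and PSMD2 is the most abundant of the group. DCUN1D1, which helps attach NEDD8 to cullins, had 7.51 and 9.05 FPKM in untreated P/R cells, against 11.3 and 13.5 FPKM in untreated parental cells. FBXO45, a substrate receptor of a ubiquitin ligase, had 6.23 and 6.29 FPKM in untreated P/R cells, against 9.10 and 10.5 FPKM in untreated parental cells. KLHL24, a substrate adaptor for cullin 3, was a low gene with 1.01 and 1.02 FPKM in untreated P/R cells, against 1.86 and 1.57 FPKM in untreated parental cells. In all 3 the lower parental library exceeds the higher P/R library. USP13, a ubiquitin hydrolase, stood at a ratio of 0.758, and the SUMO proteases SENP2 and SENP5 at 0.782 and 0.749. UBXN7, a cofactor of the unfolding ATPase p97, had the smallest untreated difference, with 5.23 and 5.39 FPKM in untreated P/R cells, against 6.08 and 6.17 FPKM in untreated parental cells, while under OTX015 it had 6.59 and 6.42 FPKM in P/R cells, against 9.52 and 9.91 FPKM in parental cells.

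The 5 mitochondrial members were also below 0 in both comparisons (median -0.40 untreated and -0.41 under OTX015). BDH1, the dehydrogenase that interconverts ketone bodies, had 12.0 and 13.2 FPKM in untreated P/R cells, against 19.9 and 20.2 FPKM in untreated parental cells. DNAJC19, which works with the import motor of the inner membrane, had 15.01 and 15.7 FPKM in untreated P/R cells, against 22.4 and 24.4 FPKM in untreated parental cells, and under OTX015 10.9 and 13.6 FPKM in P/R cells, against 23.1 and 20.9 FPKM in parental cells. DNAJC19 has 9 annotated pseudogenes named after it, so its reads may have been divided between copies. OPA1, the GTPase that fuses inner membranes, had 39.5 and 44.2 FPKM in untreated P/R cells, against 44.1 and 50.4 FPKM in untreated parental cells, and these libraries overlap. Under OTX015 OPA1 had 34.4 and 32.5 FPKM in P/R cells, against 44.9 and 41.0 FPKM in parental cells, which do not overlap. PARL, an inner-membrane protease of the rhomboid family, stood at 0.800 times its parental mean untreated, and MCCC1, a subunit of the carboxylase that breaks down leucine, at 0.745.

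Membrane traffic and transport had 6 members, all below 0 in both comparisons, with the medians further apart than in other groups (-0.32 untreated and -0.62 under OTX015). AP2M1, the cargo-binding subunit of the clathrin adaptor AP-2, had 207 and 207 FPKM in untreated P/R cells, against 273 and 269 FPKM in untreated parental cells. VPS8, part of the CORVET tether of early endosomes, had 3.75 and 3.52 FPKM in untreated P/R cells, against 5.47 and 6.39 FPKM in untreated parental cells. ATP13A3, a P-type ATPase linked to polyamine uptake, had 10.8 and 9.32 FPKM in untreated P/R cells, against 10.5 and 12.8 FPKM in untreated parental cells. The first 2 keep the lines apart and ATP13A3 does not. Under OTX015 ATP13A3 had 10.6 and 7.78 FPKM in P/R cells, against 15.6 and 13.6 FPKM in parental cells, and there the lines do not overlap. ACAP2, which switches off the GTPase ARF6, stood at ratios of 0.797 untreated and 0.606 under OTX015, and ATP11B, a lipid flippase, at 0.748 and 0.588. CLCN2, a chloride channel at low level, stood at 0.764 and 0.726.

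Of the 8 signalling and cytoskeletal members in the fit, 7 were below 0 in both comparisons. TNK2, a non-receptor tyrosine kinase also called ACK1, had the lowest difference of all members, with 14.1 and 15.5 FPKM in untreated P/R cells, against 33.2 and 28.1 FPKM in untreated parental cells. Under OTX015 it had 16.98 and 15.2 FPKM in P/R cells, against 30.0 and 34.3 FPKM in parental cells. Its P/R mean was 0.483 times the parental mean untreated and 0.501 times under OTX015, and the lines are far apart. PPP1R2, an inhibitor of protein phosphatase 1, had 10.6 and 12.3 FPKM in untreated P/R cells, against 17.4 and 18.2 FPKM in untreated parental cells. PAK2, a kinase downstream of small GTPases, had 25.3 and 26.4 FPKM in untreated P/R cells, against 34.1 and 36.98 FPKM in untreated parental cells. DVL3, a dishevelled protein that relays WNT signals from their receptors, had 19.6 and 19.6 FPKM in untreated P/R cells, against 25.5 and 24.4 FPKM in untreated parental cells. None of these 3 has overlapping lines. CEP19, a centrosomal protein, was low, with 1.15 and 1.92 FPKM in untreated P/R cells, against 3.27 and 3.14 FPKM in untreated parental cells. TBCCD1, which positions the centrosome, stood at a ratio of 0.661, and DLG1, a polarity scaffold, at 0.836. PPP1R2 has 6 annotated pseudogenes of its name and EIF4A2 has 5, which limits how far reads could be assigned to either gene.

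Smaller groups held the remaining members. In chromatin and transcription, ACTL6A, an actin-like subunit of the BAF, INO80 and TIP60 complexes, had 40.3 and 37.3 FPKM in untreated P/R cells, against 54.1 and 54.7 FPKM in untreated parental cells. YEATS2, the reader of acylated histones in the ATAC complex, had 11.9 and 11.2 FPKM in untreated P/R cells, against 16.1 and 16.8 FPKM in untreated parental cells. POLR2H, a subunit that RNA polymerases share, had 75.4 and 70.9 FPKM in untreated P/R cells, against 87.0 and 88.0 FPKM in untreated parental cells. All 3 have the P/R libraries below the parental ones in both comparisons. In glycan and lipid synthesis, PIGX, a subunit of the first mannosyltransferase of the GPI anchor, had 8.31 and 8.82 FPKM in untreated P/R cells, against 12.8 and 14.2 FPKM in untreated parental cells, and ALG3, which adds a mannose to the N-glycan precursor, had 58.2 and 57.3 FPKM in untreated P/R cells, against 79.1 and 79.7 FPKM in untreated parental cells. PCYT1A, the rate-limiting enzyme of phosphatidylcholine synthesis, had the smallest difference of this group, at -0.28. LRCH3, a leucine-rich repeat protein near the end of the arm, varied most between replicates, with 8.60 and 14.8 FPKM in untreated P/R cells, against 18.6 and 20.7 FPKM in untreated parental cells. Its P/R libraries are far from each other and still below both parental libraries. WDR53, a WD-repeat protein, had 4.52 and 5.80 FPKM in untreated P/R cells, against 8.66 and 7.93 FPKM in untreated parental cells, and TTC14, a tetratricopeptide protein, had 6.06 and 4.95 FPKM in untreated P/R cells, against 6.67 and 6.58 FPKM in untreated parental cells.

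Not every member was lower. CCDC50, a ubiquitin-binding protein, had 2.59 and 2.20 FPKM in untreated P/R cells, against 0.570 and 0.648 FPKM in untreated parental cells, and 3.44 and 2.95 FPKM in P/R cells, against 0.639 and 0.810 FPKM in parental cells under OTX015. It reached 1 FPKM in the P/R libraries alone, so its place in the fit rests on them. ETV5, an ETS-family transcription factor, had 6.68 and 7.99 FPKM in untreated P/R cells, against 4.27 and 3.74 FPKM in untreated parental cells, and under OTX015 8.54 and 6.66 FPKM in P/R cells, against 5.72 and 5.64 FPKM in parental cells. HES1, a repressor that NOTCH signalling switches on, had 27.1 and 26.8 FPKM in untreated P/R cells, against 24.8 and 26.4 FPKM in untreated parental cells, which is a narrow gap, and under OTX015 15.5 and 17.1 FPKM in P/R cells, against 11.0 and 11.5 FPKM in parental cells. In these 3 members both P/R libraries exceed both parental libraries in both comparisons. LPP, a LIM-domain protein of focal adhesions, was below the filter and also higher in P/R cells, with 0.334 and 0.391 FPKM in untreated P/R cells, against 0.105 and 0.135 FPKM in untreated parental cells, and with 0.316 and 0.811 FPKM in P/R cells against 0.102 and 0.0772 FPKM in parental cells under OTX015. BCL6, a transcriptional repressor of germinal-centre B cells, was listed at 0 in all 4 untreated libraries and reached no more than 0.0275 FPKM under OTX015. The 5 genes lie in the interval from ETV5 to HES1, which also holds TBCCD1, EIF4A2 and OPA1.

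**Figure D3:**
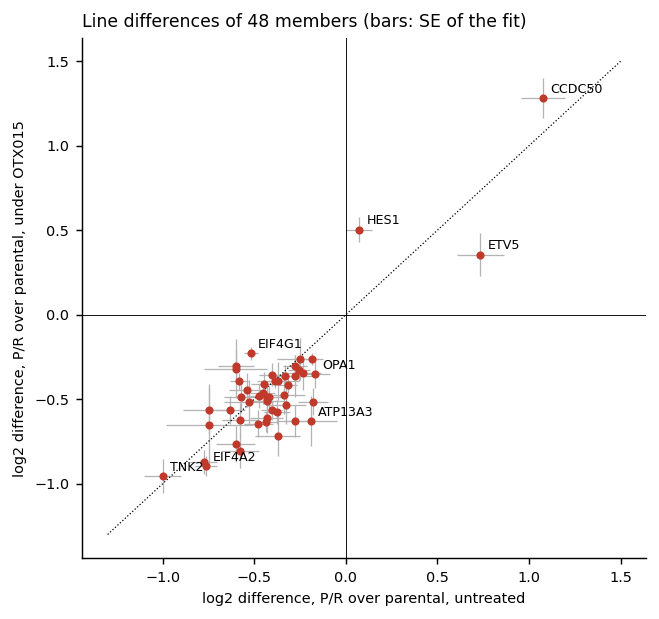
Log2 difference, P/R over parental, of the 48 members in the fit, untreated (x axis) against under OTX015 (y axis), with the standard error of the fit as bars and the line of equality dotted. The 45 lower members lie in the lower left, and CCDC50, ETV5 and HES1 stand apart from them.

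At 3 places on the stretch, 2 members start head to head from a shared stretch of at most 250 bases, so a single piece of DNA serves as the upstream region of both. These pieces are printed because both genes of each pair belong to the list and were lower in P/R cells. They are read from RefSeq promoter windows (GRCh38.p14), from which 45 of the 50 members matched, and each is the space between the starts of the pair. Capitals mark the GC box (GGGCGG on either strand) and the CCAAT box (CCAAT on either strand).
CLCN2 and POLR2H (chr3:184361606-184361709, + strand): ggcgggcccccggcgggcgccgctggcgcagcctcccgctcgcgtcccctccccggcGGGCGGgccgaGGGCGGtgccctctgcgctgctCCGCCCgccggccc
WDR53 and FBXO45 (chr3:196568555-196568659, + strand): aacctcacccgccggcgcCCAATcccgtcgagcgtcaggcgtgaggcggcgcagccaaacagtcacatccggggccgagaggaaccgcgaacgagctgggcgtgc
CEP19 and PIGX (chr3:196712251-196712376, + strand): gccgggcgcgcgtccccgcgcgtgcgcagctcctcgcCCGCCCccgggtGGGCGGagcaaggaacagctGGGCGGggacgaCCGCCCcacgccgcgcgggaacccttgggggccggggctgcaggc

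Both genes of each pair had ratios below 1 in both comparisons. WDR53 and FBXO45 overlap each other in the GENCODE annotation, as do CEP19 and PIGX. Strand handling was not stated, so reads within these pairs may be mixed. CLCN2 had 2.36 and 2.49 FPKM in untreated P/R cells, against 3.64 and 2.71 FPKM in untreated parental cells, and POLR2H, printed above, was many times more abundant, with untreated ratios of 0.764 for CLCN2 and 0.836 for POLR2H. WDR53 and FBXO45 stood at 0.622 and 0.639, and CEP19 and PIGX at 0.478 and 0.635. Under OTX015 the ratios were 0.726 and 0.796, 0.795 and 0.680, and 0.592 and 0.801, in the same order of pairs. The WDR53 replicates lay far apart in P/R cells under OTX015, with 4.86 and 7.71 FPKM in P/R cells, against 8.06 and 7.74 FPKM in parental cells.

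Promoter windows of the members, 250 bases before the start and 50 after it, held common promoter letters about as often as those of other tested genes. Searched on both strands, the GC box GGGCGG was in 62.2% of the 45 members' windows, in 70.7% of 8691 tested genes' windows and in 44.5% of all 27305 windows. CCAAT was in 18 of the members' windows, in 37.2% of tested genes' and in 35.7% of all windows, and the ETS motif CCGGAAG in 17.8%, 20.8% and 10.6%. The E-box CACGTG was in 8.89%, 10.6% and 7.4%, the NRF1 motif GCATGCGC in 6.67%, 5.9% and 3.29%, and TATAAA in 4.44%, 5.24% and 12.0%. The median GC content was 63.0% for members and 65.3% for tested genes. These are matches of letters, not sites known to be bound.

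Exposure to OTX015 for 8 hours moved members in both directions in each line. The members were not chosen on this contrast, but the line differences they were chosen on come from the same libraries. The responses and their p-values are therefore not independent of the choice. In P/R cells 9 of the 48 members rose, 7 fell and 32 did not pass, so 33.3% were called against 44.3% of all genes tested. In parental cells 17 rose, 6 fell and 25 did not pass, 47.9% against 50.4% of all genes. By direction, 22.5% of all genes rose and 21.8% fell in P/R cells, and 25.7% rose and 24.7% fell in parental cells. In both lines 8 members rose and 3 fell, and 20 passed in neither. The shares of all genes that passed in both lines or in neither were not computed, so nothing is read from these counts. The median response was 0.05 in P/R cells and 0.17 in parental cells on the log2 scale, beside 0.01 and 0.02 over all genes. Leaving out single libraries moved these counts: without replicate 1 of untreated P/R cells 5 members rose in P/R cells, without replicate 2 of untreated P/R cells 2 fell there, and without replicate 2 of parental cells under OTX015 9 rose in parental cells. Without the variance trend 4 fell in P/R cells.

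KLHL24 had the largest rise, with 2.92 and 2.73 FPKM under OTX015 against 1.01 and 1.02 FPKM untreated in P/R cells, and 4.59 and 4.32 FPKM under OTX015 against 1.86 and 1.57 FPKM untreated in parental cells. The log2 change was 0.93 ± 0.11 in P/R cells (SE, adjusted p = 0.000141 in limma) and 1.01 ± 0.11 in parental cells (adjusted p = 6.19e-05). PIGX had 13.5 and 16.0 FPKM under OTX015 against 8.31 and 8.82 FPKM untreated in P/R cells, and 19.3 and 17.5 FPKM under OTX015 against 12.8 and 14.2 FPKM untreated in parental cells, with log2 changes of 0.71 ± 0.10 (adjusted p = 0.000425) and 0.42 ± 0.10 (adjusted p = 0.00629). In both genes every OTX015 library exceeds every untreated library of its line. The abundant subunits PSMD2 and AP2M1 rose in both lines. PSMD2 rose by 0.23 in P/R cells (adjusted p = 0.00246) and 0.29 in parental cells (adjusted p = 0.000556), and AP2M1 by 0.31 (adjusted p = 0.000205) and 0.32 (adjusted p = 0.000132). YEATS2 rose by 0.31 and 0.32 (adjusted p = 0.00551 and 0.004). These 5 calls held in both lines under every alternative that was fitted. DVL3, SENP5 and UBXN7 also rose in both lines, and each lost its call in P/R cells when a P/R library was left out, as did DVL3 and SENP5 in parental cells without a parental library.

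Other members passed in 1 line. ATP11B had log2 changes of 0.19 in P/R cells (adjusted p = 0.238) and 0.54 in parental cells (adjusted p = 0.00566). SENP2 had 0.29 in P/R cells (adjusted p = 0.0538) and 0.50 in parental cells (adjusted p = 0.00434), and EIF4A2 had 0.12 (adjusted p = 0.118) and 0.26 (adjusted p = 0.006). All 3 rose in parental cells under every alternative. The rise of CEP19 in P/R cells ended when at least 1 library was left out, as did those of ACAP2, CLCN2, ETV5, FXR1, TTC14 and VPS8 in parental cells. The calls of CEP19 and VPS8 held least of these. Each ended for 7 of the libraries, left out singly, and under 4 other settings, a changed pseudocount among them. By role, 1 of 6 membrane traffic members rose in P/R cells and 5 of 6 in parental cells, and 4 of 9 members of the ubiquitin, SUMO and proteasome group rose in P/R cells and 5 of 9 in parental cells. None of the differences between these counts was tested.

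Among the members that fell, HES1 fell most, with 15.5 and 17.1 FPKM under OTX015 against 27.1 and 26.8 FPKM untreated in P/R cells, and 11.0 and 11.5 FPKM under OTX015 against 24.8 and 26.4 FPKM untreated in parental cells. The log2 change was -0.69 ± 0.07 in P/R cells (adjusted p = 9.14e-05) and -1.12 ± 0.07 in parental cells (adjusted p = 4.61e-06). ALG3 fell by 0.34 in P/R cells (adjusted p = 0.00295) and by 0.33 in parental cells (adjusted p = 0.00284), and both genes kept their calls under every alternative. BDH1 fell in both lines as well, by 0.32 in P/R cells (adjusted p = 0.0103, lost without replicate 2 of untreated P/R cells) and 0.39 in parental cells (adjusted p = 0.00337). Of the 5 mitochondrial members, 4 fell in P/R cells (BDH1, OPA1, DNAJC19 and PARL) and 2 in parental cells (BDH1 and MCCC1). Each of those P/R calls, and that of IGF2BP2, ended when a single library was left out, and so did the MCCC1 call. EIF4G1 fell by 0.26 (adjusted p = 0.000433) and EIF2B5 by 0.31 (adjusted p = 0.000776) in parental cells under every alternative.

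**Figure D4:**
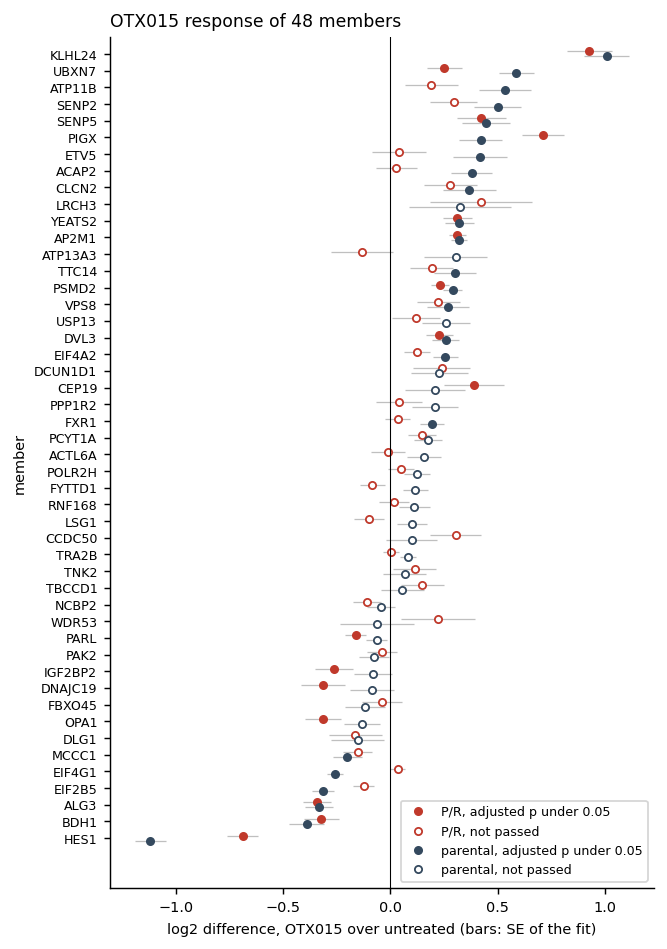
Log2 difference, OTX015 over untreated, of the 48 members in the fit, in P/R cells (red) and parental cells (dark), sorted by the parental response, with the standard error of the fit as bars and filled points for an adjusted p under 0.05. KLHL24 is at the top, with 0.93 in P/R and 1.01 in parental cells, and HES1 at the bottom, with -0.69 and -1.12.

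The upstream region of HES1 is printed because HES1 had the largest fall of the members under OTX015 in both lines. The 250 bases before its start (RefSeq, GRCh38.p14) hold the letters TGGGAA, which the NOTCH partner RBPJ can bind, 2 times, and the N-box letters CACNAG, through which HES proteins are known to repress, 3 times over both strands. Capitals mark both.
HES1 (chr3:194135898-194136147, + strand): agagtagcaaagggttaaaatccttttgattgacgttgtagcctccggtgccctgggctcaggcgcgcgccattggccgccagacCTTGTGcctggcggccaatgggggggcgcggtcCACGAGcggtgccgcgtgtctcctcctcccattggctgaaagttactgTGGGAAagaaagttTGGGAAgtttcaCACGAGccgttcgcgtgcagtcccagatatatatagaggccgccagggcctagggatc
In the promoter windows, TGGGAA was in 28.9% of members, 21.6% of tested genes and 24.4% of all genes, and CACNAG in 33.3%, 34.9% and 38.1%.

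A test of the response itself, as the OTX015 change in P/R cells minus that in parental cells, called 0 of the 48 members in limma, against 0.08% of all genes tested (9 genes). At an unadjusted p under 0.05 there were 6 members (12.5%), beside 9.6% of all genes. They were EIF4G1, HES1, UBXN7, EIF2B5, ACAP2 and FYTTD1. EIF4G1 had the lowest adjusted p, with a difference of 0.29 ± 0.05 (SE, adjusted p = 0.141). It had 219 and 223 FPKM under OTX015 against 219 and 213 FPKM untreated in P/R cells, and 257 and 261 FPKM under OTX015 against 311 and 309 FPKM untreated in parental cells, so the OTX015 libraries are below the untreated ones in parental cells and are close to the untreated ones in P/R cells. HES1 had a difference of 0.43 ± 0.10 (adjusted p = 0.21), with the smaller fall in P/R cells. For 33 of the 48 members the line difference was lower under OTX015 than untreated, which is the same quantity read the other way and is below 0 for 49.2% of all genes. None of these values passed, which does not show that the lines respond alike. The difference in response is built from the line comparisons that the members were picked from, so it is not independent of that choice.

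Products of the members work in complexes and pathways whose other parts are encoded elsewhere, and those partners were looked up as 17 lists of 127 genes. Of these, 126 were found and tested. In untreated cells 22 of the 126 partners were lower in P/R cells, 13 were higher and 91 did not pass. Over all genes tested, 11.9% were lower and 11.7% higher. The partners had a median log2 difference of -0.03 beside -0.01 over all genes. Under OTX015, 21 were lower, 14 higher and 91 did not pass (median -0.04), while 11.7% of all genes were lower and 12.7% higher. In most lists the partners lay around 0 while the member was below it, and the ATAC list had the lowest untreated median, at -0.31. The members were chosen for being lower, and the higher members HES1, ETV5 and CCDC50 head no list. Nothing is therefore read from the gap between members and partners. Partner counts depended on single libraries: without replicate 1 of untreated P/R cells 10 partners were lower untreated, and without replicate 1 of untreated parental cells 13. Under OTX015, 8 were higher without replicate 1 of P/R cells or without replicate 1 of parental cells, and 9 without replicate 2 of parental cells. The 2 line comparisons had 17 lower and 10 higher partners in common, and 9 and 5 of these passed under every alternative in both. The share of all genes that passed in both comparisons was not computed.

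Chromosome 17 carries 18 of the tested partners, and it held 8 of the 17 lower in both comparisons and 6 of the 10 higher in both. The share of all chromosome 17 genes that passed was not computed, so nothing is read from these counts about the partners. Against PSMD2, the proteasome partners PSMD3 and PSMD11 on chromosome 17 were also called lower, and most others were not called. PSMD3 had 116 and 119 FPKM in untreated P/R cells, against 210.2 and 208 FPKM in untreated parental cells (log2 difference -0.83, adjusted p = 2.4e-06), and PSMD11 had 71.0 and 75.2 FPKM in untreated P/R cells, against 124 and 120.4 FPKM in untreated parental cells (log2 difference -0.73, adjusted p = 8.14e-06). Of the 17 proteasome partners, 14 had a log2 difference below 0 untreated and 13 under OTX015. Over all genes tested, 52.1% and 53.0% were below 0. Of the 17, 6 were called lower untreated, and the median over the list was -0.05. AP2B1, the partner of AP2M1 in the AP-2 core, had 48.6 and 47.5 FPKM in untreated P/R cells, against 71.9 and 74.4 FPKM in untreated parental cells (log2 difference -0.60, adjusted p = 6.08e-05), and is on chromosome 17 too. AP2S1, the small subunit, was higher, at 0.23 (adjusted p = 0.0055), a call that its comparison under OTX015 lost when the variance trend was dropped. KAT2A and TADA2A, partners of YEATS2 in the ATAC complex, were lower, at -0.64 (adjusted p = 0.00105) and -0.77 (adjusted p = 0.000165), as was SMARCE1, a BAF partner of ACTL6A, at -0.53 (adjusted p = 0.000338).

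Several close relatives of members ran the other way. EIF4A1, the main paralogue of EIF4A2 and on chromosome 17, had 1239 and 1284 FPKM in untreated P/R cells, against 866 and 856 FPKM in untreated parental cells (log2 difference 0.55, adjusted p = 1.58e-05), and 1381 and 1297 FPKM in P/R cells against 894 and 879 FPKM in parental cells under OTX015. SENP3, a SUMO protease related to SENP5, had 78.3 and 76.8 FPKM in untreated P/R cells, against 41.2 and 38.7 FPKM in untreated parental cells (log2 difference 0.94, adjusted p = 6.31e-06). FXR2, a paralogue of FXR1, had 35.1 and 39.9 FPKM in untreated P/R cells, against 26.9 and 26.9 FPKM in untreated parental cells (log2 difference 0.46, adjusted p = 0.00124). In each of these genes both P/R libraries exceed both parental ones, the reverse of the member on 3q. DVL2, a paralogue of DVL3, was higher by 0.29 untreated (adjusted p = 0.00656, lost without replicate 2 of untreated P/R cells) and by 0.49 under OTX015 (adjusted p = 0.000332). POLR2A, the largest subunit of RNA polymerase II, was higher by 0.40 (adjusted p = 0.00085), with POLR2H lower. All 5 of these genes are on chromosome 17, and whether their higher levels relate to the lower members was not tested. Off that chromosome, IGF2BP3 and DVL1 had log2 differences of -0.02 and -0.01 that did not pass (adjusted p = 0.928 and 0.963).

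Elsewhere in the genome, 3 partners were lower in both comparisons under every alternative. NEDD8, the modifier that DCUN1D1 helps to attach, had 126 and 124 FPKM in untreated P/R cells, against 203 and 198 FPKM in untreated parental cells (log2 difference -0.68, adjusted p = 8.14e-06). SUMO3 had 154 and 153 FPKM in untreated P/R cells, against 198 and 204 FPKM in untreated parental cells (log2 difference -0.39, adjusted p = 0.000174), and PSMD8 had 225 and 233 FPKM in untreated P/R cells, against 269 and 267 FPKM in untreated parental cells (log2 difference -0.23, adjusted p = 0.00218). YME1L1, a protease that cuts OPA1, was the 1 higher partner of this kind, with 56.7 and 60.5 FPKM in untreated P/R cells, against 38.3 and 41.5 FPKM in untreated parental cells (log2 difference 0.54, adjusted p = 0.000272). It was also the 1 of 9 partners in mitochondrial dynamics and import that passed untreated. The 4 partners of EIF2B5 were all below 0 untreated and 1 was called lower, with a median over the list of -0.12. The 5 CORVET and HOPS partners of VPS8 had a median of 0.02. The remaining partners that passed in both comparisons lost a call under at least 1 alternative: SMARCD2, RUVBL2, CSRP2BP, EIF4A3, EIF4H, ADRM1, SAE1 and CHKA were lower, and SMARCC2, EIF4G3, NCBP3, AP2S1 and DVL2 higher.

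**Figure D5:**
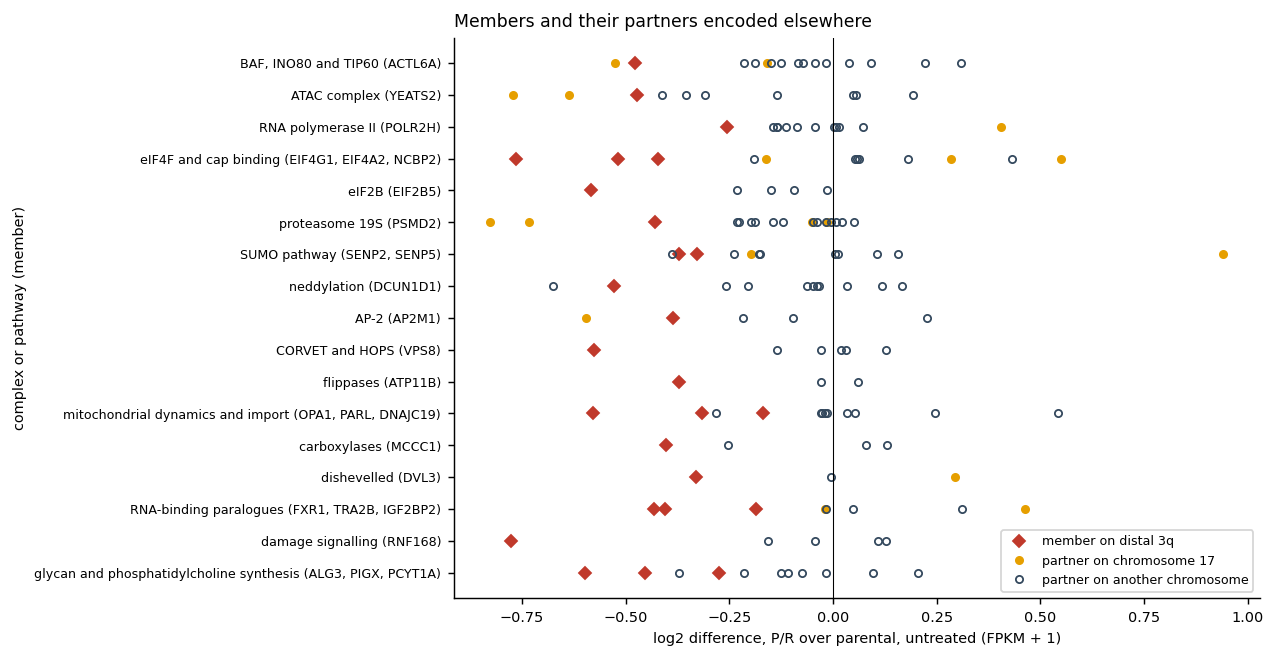
Log2 difference in FPKM + 1, P/R over parental, in untreated cells, of the members named in each list (red diamonds) and of their partners on chromosome 17 (filled orange) and on other chromosomes (open). Members, which were chosen for being lower, lie at -0.17 or below. Most partners on other chromosomes lie near 0 and those on chromosome 17 are spread to both sides.

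Of the 50 members, 16 overlap another coding gene and 26 have a noncoding gene on the opposite strand in the GENCODE annotation, and 5 have annotated pseudogenes of their name (DNAJC19, PPP1R2, EIF4A2, ALG3 and FYTTD1). The sources say nothing of strand, so reads of such neighbours cannot be told apart.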

How the data were processed

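Total RNA was cleared of DNA and sequenced by a standard Illumina protocol, per the labels' protocols. Poly(A) selection and strand handling were not stated. The authors deposited 1 table of FPKM values for 19718 coding genes in 8 libraries. The unit is inferred from the values and from the tools, TopHat2 2.0 and Cufflinks 2.0 on hg19, per the submitters' processing notes. The deposited FPKM are quantile normalized: ranked values are equal across libraries to within 0.136% (ranks with a mean of at least 1 FPKM). The depth is therefore unknown, and no counting interval is given. Of the symbols, 28 had become numbers and were named through their Ensembl identifiers.

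Genes with at least 1 FPKM in at least 2 libraries were fitted as log2(FPKM + 1), which understates the change of low genes, as 4 group means in limma 3.58.1 (R 4.3.3; variance trend; 4 residual and 5.23 prior degrees of freedom). P-values are two-sided, adjusted by Benjamini-Hochberg over the 11255 genes, with a threshold of 0.05. Replicates are, per the labels, biologic and independently treated, and p-values measure only the spread between these samples. The fit was tried on simulated data with independent noise, in which some genes were changed in untreated P/R cells. Far fewer genes were changed than were called here, and no quantile normalization was applied. The simulation therefore does not show how the calls behave under these conditions. Gene order came from a GENCODE annotation of GRCh38, which placed 19472 genes by identifier; no coordinates of the hg19 table are used.

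Members, gene lists and tests were chosen with earlier results of these data known. All members could be named; beyond them, the rule named the 5 lowest and 5 highest other distal 3q genes, the 8 tested genes before ACTL6A, and partners passing in both line comparisons. IGF2BP3, DVL1 and PIGZ fall outside it and were chosen after their values were seen. Of 127 partners, ATP11A was not found and KAT14 was read under its older symbol CSRP2BP. Alternative settings changed the pseudocount to 0.1 or 5, dropped the filter or raised it to a mean of 5 FPKM, dropped the trend, centred libraries on their median, fitted only the groups compared, added a replicate block, or left out each library.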

Additional observations from a re-analysis of the deposited data

How the results depend on the processing

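Members lower in P/R cells numbered 29 to 35 untreated and 31 to 41 under OTX015 when single libraries were left out (35 and 40 with all libraries), and 31 to 35 and 34 to 42 under the other settings. No call of a member or named gene turned its direction. Among named genes that missed the threshold, DGKG, MCF2L2 and ZMAT3 in both line comparisons and ST6GAL1 untreated turned theirs when 1 library was left out (ZMAT3 -0.02 untreated and -0.03 under OTX015 without replicate 1 of parental cells, against 0.10 and 0.02). Leaving out libraries gave 5 to 9 members rising and 2 to 7 falling under OTX015 in P/R cells, and 9 to 17 rising and 5 to 6 falling in parental cells. Without the variance trend 4 fell in P/R cells. The difference in response called 0 members in limma under every setting. Other distal 3q genes lower under OTX015 numbered 16 at a mean of at least 5 FPKM, where fewer genes were tested. Partners numbered 10 to 24 lower and 9 to 13 higher untreated, and 14 to 20 lower and 8 to 14 higher under OTX015, with single libraries left out. Over all genes, the 1335 lower and 1312 higher untreated were 787 and 827 at their lowest with a library left out, and the 1315 lower under OTX015 were 779. The causes were not tested. For the difference in response, the 2 lower and 7 higher genes became 0 to 11 and 1 to 18. Replicate numbers did not pair the samples (correlations of deviations between groups -0.12 to 0.104). With the replicate number as a block, 35 and 40 members were lower in P/R cells, 9 rose and 7 fell under OTX015 in P/R cells, 16 rose and 6 fell in parental cells, and 0 differed in response. The block gave 24 and 26 other distal 3q genes lower, 20 and 19 partners lower, and 13 and 14 higher, untreated and under OTX015. Unknown depth leaves low members such as KLHL24, CEP19 and CCDC50 without a counting error.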
